A study of Mus musculus with 6 samples.

Results

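The collagen gene family was followed in ribosome-bound messenger RNA of brain endothelial cells from mouse embryos that overexpress Axin1. Its members were all rows whose gene symbol is Col, a number, a and a number, and 43 of the 23827 listed genes met this rule. They comprised 8 basement membrane genes (types IV, XV and XVIII), 6 fibrillar genes (types I, III and V) and 29 genes of other types. The fibril-forming genes Col2a1, Col11a1, Col11a2, Col24a1 and Col27a1 stand among the other types under this grouping.

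Collagens are proteins built around a triple helix, whose chains come from the same gene or from separate genes. Most are secreted, and some span the cell membrane. Type IV collagen builds the sheet-like network of the basement membrane on which endothelial cells sit, and types XV and XVIII lie at its border with the surrounding matrix. Types I, III and V form the fibrils of connective tissue, and in the embryonic brain they are best known from the meninges and the walls of larger vessels. Axin1 is a scaffold protein that brings beta-catenin together with the kinases leading to its breakdown, and so restrains canonical Wnt signalling, a pathway that brain endothelial cells use to form the blood-brain barrier.

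The 3 Axin1 overexpression libraries are labelled R26 Axin1 IresLacZ overexpression, R26 being the usual short name of the Rosa26 locus, and the 3 wild-type libraries are labelled Wt. All 6 came from brains at E14.5 on a mixed C57BL/6 x 129/Sv background, after tamoxifen was given to the mothers at E12.5. Translating ribosome affinity purification (TRAP) pulls down tagged ribosomes with the messenger RNA they carry. The sources used here give neither the promoter behind the transgene and the ribosome tag nor the number of embryos behind a library. The labels call the 3 libraries of a group biological replicates.

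Levels are given as RPKM, read numbers scaled to transcript length and to library size, which allows genes of different length to be compared. Whole reads recovered from these values and the deposited group means came to 21076919 to 37040172 per Axin1 overexpression library and 53524187 to 62507513 per wild-type library. Axin1 itself had 37.8 ± 0.349 RPKM with overexpression and 14.4 ± 0.798 RPKM in wild type (SD, n = 3 each), with limma adjusted p = 2.25e-05. All 10 endothelial markers looked at passed 1 RPKM, with a summed level of 2598.8 to 2803.5 RPKM in Axin1 overexpression libraries and 3115.5 to 3260.2 RPKM in wild-type libraries. Without Cldn5 the other 9 markers summed to 1862.0 to 2110.3 RPKM with overexpression and 1903.1 to 1968.1 RPKM in wild type, which overlap. Changes within these 9 went in both directions. Emcn averaged 283.5 RPKM with overexpression and 136.1 RPKM in wild type, while Tie1 averaged 262.4 and 324.6 RPKM and Esam 280.2 and 330.5 RPKM. Column headers carry the tag RS216 for every Axin1 overexpression library and RS148 for every wild-type library. The sources used here do not explain this tag, and whatever it marks cannot be told apart from genotype.

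A mean of at least 1 RPKM over the 6 libraries was reached by 26 of the 43 collagen genes. These were 6 of 8 basement membrane genes, 5 of 6 fibrillar genes and 15 of 29 genes of other types. Just inside this limit lay Col4a6 with a mean of 1.1 RPKM (0.837 RPKM with overexpression and 1.36 RPKM in wild type). Just outside lay Col25a1 with 0.940 RPKM and Col11a2 with 0.936 RPKM. Summed over all members, collagen transcripts reached 912.6, 740.6 and 813.8 RPKM in the Axin1 overexpression libraries and 961.0, 735.8 and 953.3 RPKM in the wild-type libraries, so the groups overlapped. The 5 most abundant genes supplied 80.9 to 82.7% of this sum with overexpression and 77.0 to 80.2% in wild type.

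Basement membrane genes made up most of the collagen message in both genotypes. Their share of summed collagen RPKM was 72.0 ± 2.40% with Axin1 overexpression and 70.4 ± 4.27% in wild type (SD, n = 3 each). Fibrillar genes held 19.6 ± 2.30% with overexpression and 19.4 ± 3.31% in wild type. The other types held 8.29 ± 0.354% with overexpression and 10.1 ± 1.2% in wild type. For the basement membrane and fibrillar classes the difference in share was smaller than the SD of either group. For the other types it was larger, and the shares did not overlap, at 7.91 to 8.61% with overexpression and 8.91 to 11.3% in wild type. No test was run on the shares.

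**Figure D1:**
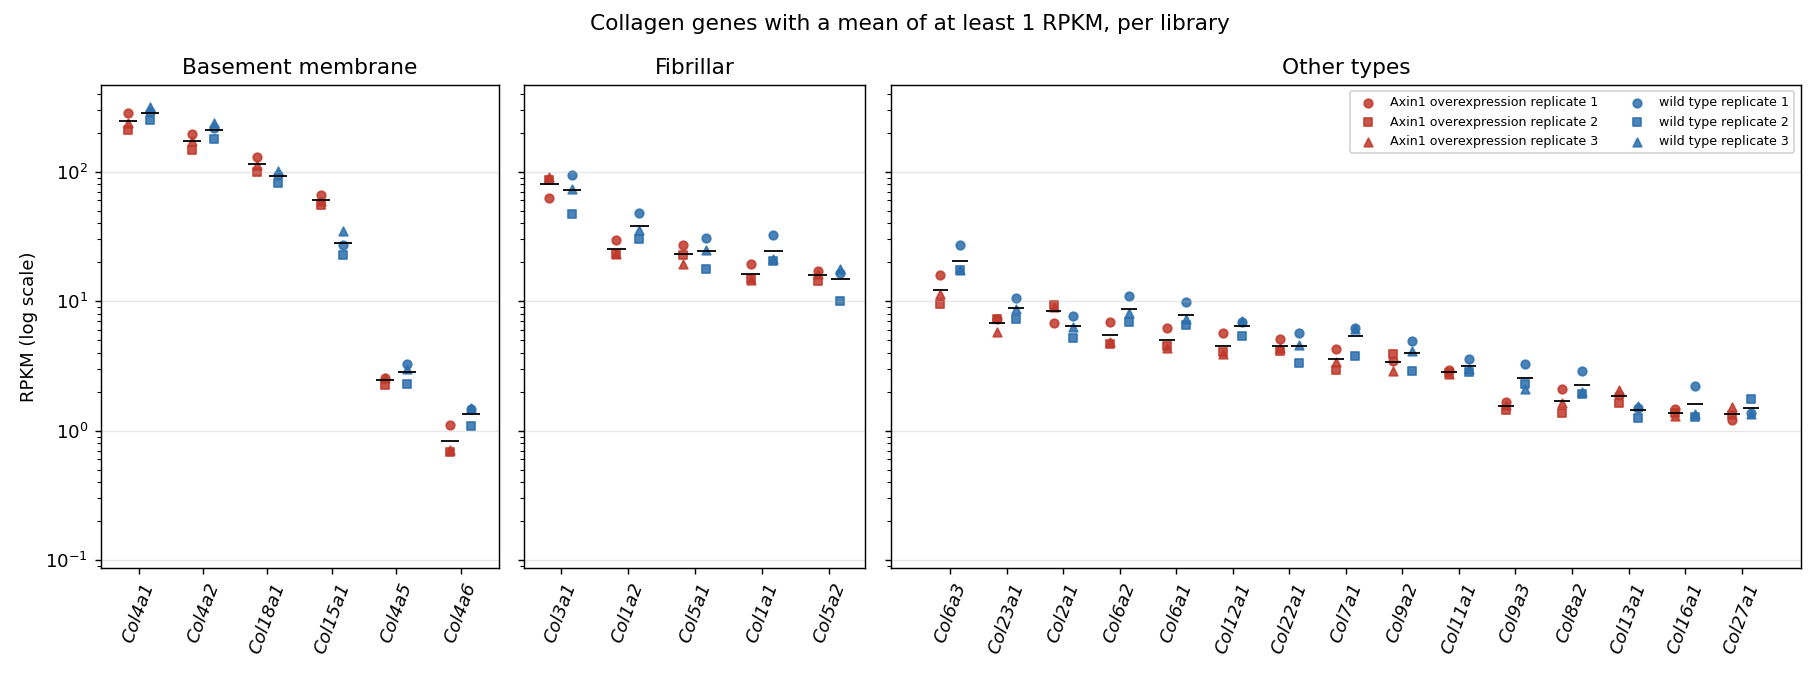
Level of each collagen gene that averaged 1 RPKM or more, on a log axis in RPKM, with 1 point per library and the Axin1 overexpression libraries set beside the wild-type ones, by class. Col4a1 and Col4a2 stand highest, and the 3 Axin1 overexpression points of Col15a1 (55.2 to 65.6 RPKM) lie above its wild-type points (22.9 to 35.0 RPKM).

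For the test, log2(RPKM + 1) was compared by limma over the 12493 genes that averaged 1 RPKM or more, and an adjusted p (Benjamini-Hochberg) under 0.05 counted as a change. A fold change on this scale understates the change of genes of low level. Of the 26 collagen genes tested, 8 changed, or 30.8%, against 22.8% of all genes tested. Col15a1 alone was higher with Axin1 overexpression, which is 3.85% of the collagen genes against 14.4% of all genes. The 7 that fell were Col6a3, Col6a2, Col6a1, Col1a2, Col9a3, Col12a1 and Col4a6, which is 26.9% of the collagen genes against 8.37% of all genes. The median log2 fold change was -0.19 over the 26 collagen genes and 0.04 over all genes tested, and it lay below 0 for 19 of the 26 and for 41.2% of all genes. By class the median was -0.18 for basement membrane genes, -0.07 for fibrillar genes and -0.27 for the other types.

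The count of lower collagen genes moved with the libraries in the fit, while Col15a1 was called without any of them. Without Axin1 overexpression replicate 2, and likewise without replicate 3, 0 collagen genes were called lower, against 7 with all libraries. The share of all genes called lower was 3.72% and 4.81% in these fits, against 8.37% with all libraries. The log2 fold changes of the 7 genes moved less than their calls, to between -0.56 and -0.31 without replicate 2 and between -0.68 and -0.32 without replicate 3, against -0.71 to -0.36 with all libraries. Without wild-type replicate 1 only Col9a3 was called lower (5.76% of all genes), without wild-type replicate 3 only Col6a3 and Col9a3 (6.79%), and without wild-type replicate 2 the count was 11 (7.47%). Every Axin1 overexpression library stood above every wild-type library for 2 of the 26 genes, and below for 5, together 26.9%. Over all genes tested, the groups did not overlap in 43.9%, with overexpression above in 28% and below in 15.9%.

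**Figure D2:**
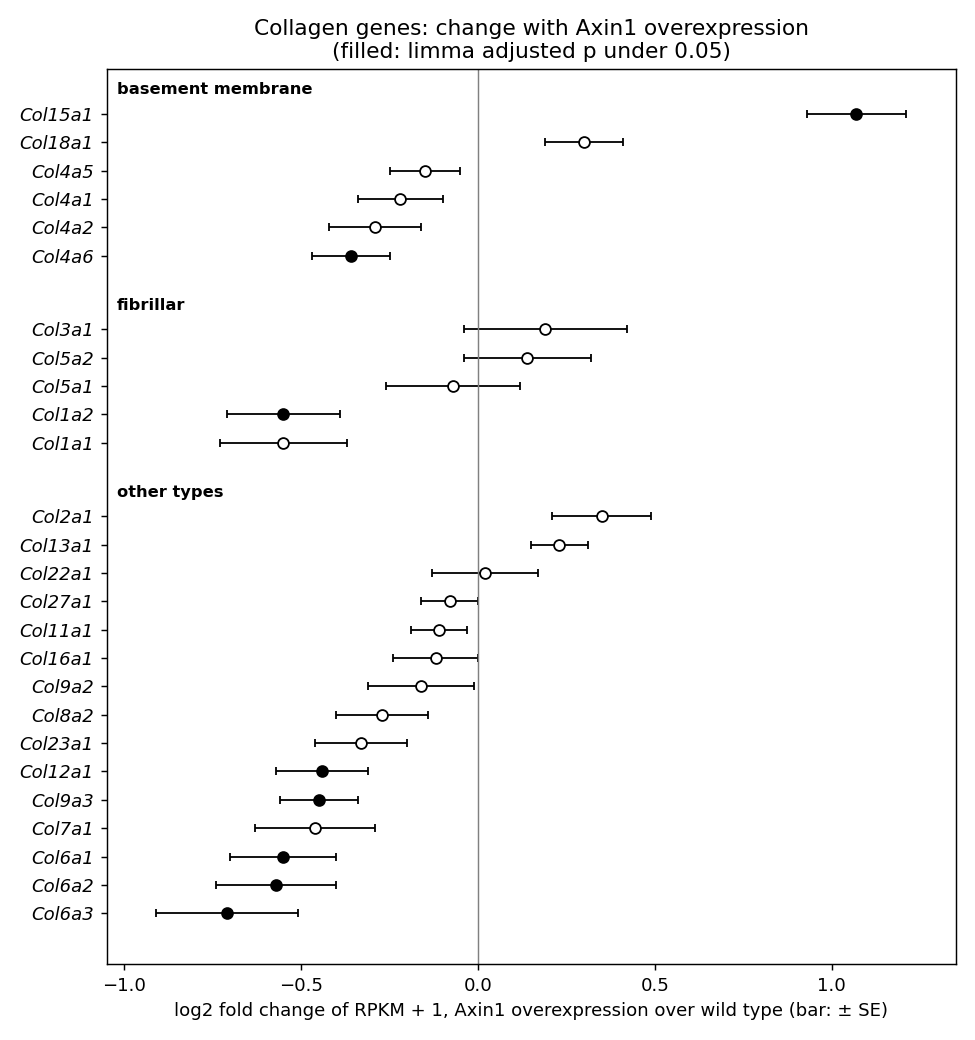
Log2 fold change of RPKM + 1, Axin1 overexpression over wild type, for the 26 collagen genes tested, by class, with bars of 1 SE and filled points where the limma adjusted p was under 0.05. Col15a1 stands at 1.07, apart from the other basement membrane genes, and the 3 type VI genes lie between -0.71 and -0.55.

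Among the basement membrane genes, Col15a1, which encodes the chain of type XV collagen that anchors the basement membrane to underlying fibrils, had the largest change of those tested. It had 65.6, 55.2 and 58.9 RPKM in the Axin1 overexpression libraries and 27.0, 22.9 and 35.0 RPKM in the wild-type libraries. Every Axin1 overexpression library lay above every wild-type library. The means were 59.9 ± 5.28 RPKM with overexpression and 28.3 ± 6.16 RPKM in wild type (SD, n = 3 each), a ratio of 2.12. The log2 fold change was 1.07 with an SE of 0.14 (limma adjusted p = 0.00209). In the authors' deposited table the fold of wild type over Axin1 overexpression was 0.487, with adjusted p = 5.71e-07.

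Col18a1 encodes type XVIII collagen, whose end fragment is the angiogenesis inhibitor endostatin, and is the closest relative of Col15a1. It had 129.3, 100 and 111.6 RPKM in the Axin1 overexpression libraries and 94.0, 81.2 and 100.7 RPKM in the wild-type libraries. The groups overlapped, since the highest wild-type library passed the lowest overexpression library. Its log2 fold change of 0.30 (SE 0.11) did not pass the test, with limma adjusted p = 0.0799. The level of Col18a1 over that of Col15a1 within a library was 1.97, 1.81 and 1.90 with Axin1 overexpression and 3.48, 3.55 and 2.88 in wild type. This ratio did not overlap between the groups. Some other pairs of collagen genes did not overlap either, and some did. Col4a1 over Col15a1 lay at 3.82 to 4.34 with overexpression and 9.03 to 10.9 in wild type. Both ratios are taken over Col15a1 and so carry its own change, and they are not separate results.

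The sequences before the start sites of these 2 related genes are shown because Col15a1 passed the test and Col18a1 did not. They are the 250 bases before each start in RefSeq on GRCm38.p6, written 5′ to 3′ on the strand of the gene, with capitals marking every match to the 4 motifs described after them, on either strand.
Col15a1, chr4:47207762-47208011, plus strand: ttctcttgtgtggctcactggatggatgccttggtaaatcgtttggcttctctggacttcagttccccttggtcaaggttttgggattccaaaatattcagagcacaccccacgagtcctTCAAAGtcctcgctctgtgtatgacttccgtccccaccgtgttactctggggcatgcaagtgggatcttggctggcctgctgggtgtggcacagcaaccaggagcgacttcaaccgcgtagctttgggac
Col18a1, upstream start, chr10:77166531-77166780, minus strand: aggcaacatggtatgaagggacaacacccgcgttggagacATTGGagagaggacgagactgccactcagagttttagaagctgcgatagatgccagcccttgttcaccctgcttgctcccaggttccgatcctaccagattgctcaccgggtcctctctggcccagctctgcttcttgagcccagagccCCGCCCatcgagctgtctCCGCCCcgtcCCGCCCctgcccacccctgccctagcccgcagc
Col18a1, downstream start, chr10:77113706-77113955, minus strand: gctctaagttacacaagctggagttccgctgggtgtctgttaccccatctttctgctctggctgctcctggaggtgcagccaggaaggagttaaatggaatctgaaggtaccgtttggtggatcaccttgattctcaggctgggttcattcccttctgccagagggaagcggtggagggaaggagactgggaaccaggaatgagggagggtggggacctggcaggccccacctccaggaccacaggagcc

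The Col15a1 window held 1 match to the core motif of the TCF/LEF factors (CTTTGA or CTTTGT, the DNA-binding partners of beta-catenin), read on the opposite strand as TCAAAG. The upstream Col18a1 window held 3 GC boxes (GGGCGG) and 1 CCAAT box, all on the opposite strand, and the downstream window held no match. The motifs do not overlap each other. Windows were found for 35 of the 43 collagen genes, 38 windows in all. The TCF/LEF core was in 31.6% of these windows, against 27.6% of all 32851 promoter windows. The GC box was in 57.9% of collagen windows and 32.7% of all windows, CCAAT in 34.2% and 33.8%, and the TATA box (TATAAA) in 13.2% and 12.4%. A match describes the letters and not a binding site.

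Col4a1 and Col4a2 encode the paired chains of the main vascular type IV network, and their mutation weakens small vessels of the brain. They were the most abundant collagens in every library and did not pass the test. Col4a1 had 284.7, 211.0 and 237.7 RPKM with Axin1 overexpression and 286.7, 249.6 and 316.2 RPKM in wild type. Col4a2 had 196.6, 147.0 and 173.5 RPKM with overexpression and 216.3, 178.6 and 238.2 RPKM in wild type. Both groups of libraries overlapped for each gene, with log2 fold changes of -0.22 (SE 0.12) for Col4a1 and -0.29 (SE 0.13) for Col4a2 and limma adjusted p of 0.214 and 0.132. The genes sit head to head on chromosome 8, with starts 21 bases apart in RefSeq. Their ratio, Col4a1 over Col4a2, stayed narrow within libraries, at 1.37 to 1.45 with overexpression and 1.33 to 1.4 in wild type.

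The remaining type IV chains were far less abundant. Col4a5, a chain of basement membranes in kidney and smooth muscle, averaged 2.45 ± 0.176 RPKM with Axin1 overexpression and 2.85 ± 0.519 RPKM in wild type, with limma adjusted p = 0.303. Col4a6, its neighbour on the X chromosome and partner in smooth muscle basement membranes, had 1.11, 0.690 and 0.713 RPKM with overexpression and 1.48, 1.09 and 1.5 RPKM in wild type. Col4a6 fell by 0.36 on the log2 scale (SE 0.11, limma adjusted p = 0.0402), although Axin1 overexpression replicate 1 lay above the lowest wild-type library. Its mean was 0.837 RPKM with overexpression and 1.36 RPKM in wild type, so it passed the filter only through the wild-type group. With no filter on low values its call was lost (limma adjusted p = 0.0957).

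Col4a3 and Col4a4, best known with Col4a5 from the kidney filter and Alport syndrome, did not reach 1 RPKM and were not in the main test. Col4a3 had 0.172, 0.289 and 0.270 RPKM with Axin1 overexpression and 0.687, 0.746 and 0.718 RPKM in wild type. These values rest on 54, 92 and 49 reads with overexpression and 367, 342 and 355 reads in wild type, and the groups did not overlap. With no filter on low values, limma gave a log2 fold change of -0.47 with adjusted p = 0.00695, where 4.66% of 18917 genes were called lower. Leaving out each library in turn kept this p between 0.0166 and 0.039. The authors' deposited table gave a fold of wild type over Axin1 overexpression of 3.05 with adjusted p = 4.61e-16. Col4a3 and Col15a1 were the 2 collagen genes under 0.05 in that table, where 8.88% of all genes were. Col4a4, its neighbour on chromosome 1, had 16, 16 and 8 reads with overexpression and 33, 23 and 31 reads in wild type.

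**Figure D3:**
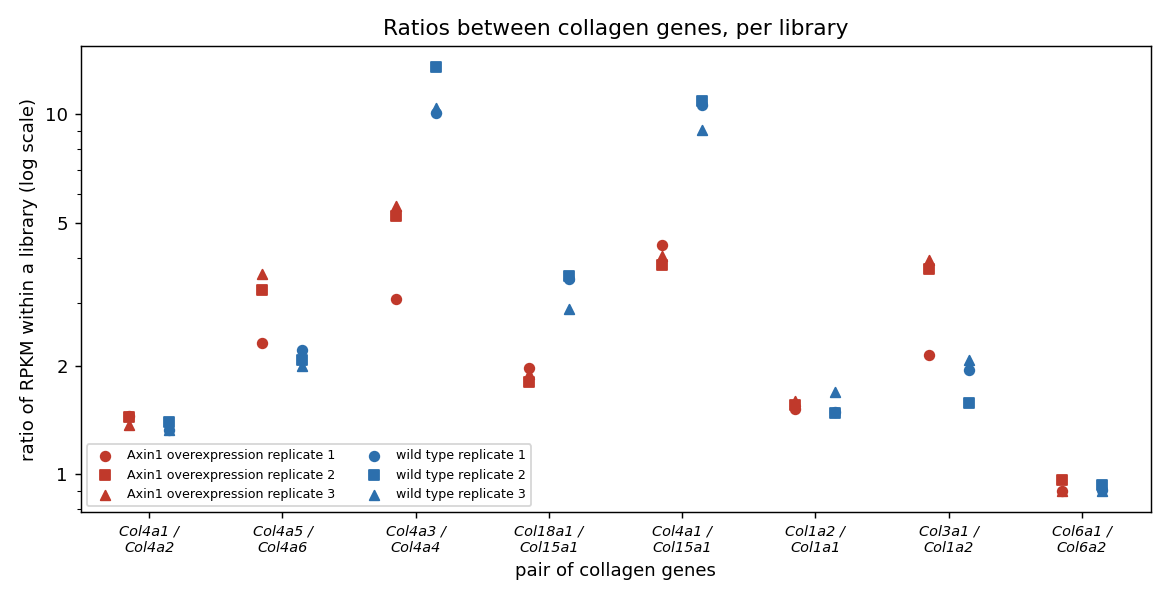
Ratio of RPKM between pairs of collagen genes within each library, on a log axis, with Axin1 overexpression libraries left of wild-type libraries. Col18a1 over Col15a1 lies at 1.81 to 1.97 with overexpression and 2.88 to 3.55 in wild type. Col4a1 over Col15a1, Col4a3 over Col4a4, Col4a5 over Col4a6 and Col3a1 over Col1a2 do not overlap between the groups either. The gap is narrow for Col4a5 over Col4a6 (lowest 2.31 with overexpression, highest 2.22 in wild type) and Col3a1 over Col1a2 (2.14 and 2.08). Col4a4 rests on 8 to 33 reads per library. Col4a1 over Col4a2, Col1a2 over Col1a1 and Col6a1 over Col6a2 overlap.

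Of the 5 fibrillar genes tested, 1 fell and 4 did not pass the test. Col1a2, a chain of type I collagen, the main fibril protein of connective tissue, had 29.5, 23.0 and 23.1 RPKM with Axin1 overexpression and 48.3, 30.0 and 35.5 RPKM in wild type. All 3 overexpression libraries lay below all 3 wild-type libraries, and Col1a2 fell by 0.55 on the log2 scale (SE 0.16, limma adjusted p = 0.0431). Its partner Col1a1 averaged 16.2 ± 2.76 RPKM with overexpression and 24.6 ± 6.79 RPKM in wild type. All overexpression libraries lay below all wild-type libraries for Col1a1 too, and its log2 fold change of -0.55 (SE 0.18) narrowly missed the threshold with limma adjusted p = 0.0541.

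Col3a1, the fibril chain of vessel walls, was the most abundant fibrillar gene and did not pass the test. It had 63.0, 85.6 and 91.0 RPKM with Axin1 overexpression and 94.4, 47.3 and 73.9 RPKM in wild type, where the wild-type libraries spanned the whole range of the overexpression ones. Its log2 fold change was 0.19 with an SE of 0.23 and a limma adjusted p of 0.584. Col5a1 and Col5a2, whose type V chains set fibril diameter, averaged 23.0 ± 3.97 and 15.9 ± 1.53 RPKM with overexpression and 24.5 ± 6.67 and 14.7 ± 4.06 RPKM in wild type, with limma adjusted p of 0.822 and 0.606. Col5a3, the remaining type V chain, had a mean of 0.0665 RPKM and was not tested.

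Of the 15 genes of other types tested, 5 fell, 0 were called higher and 10 did not pass. The 3 tested genes of type VI collagen, which forms beaded microfilaments around cells, all fell. Col6a3 had 15.8, 9.47 and 11.3 RPKM with Axin1 overexpression and 27.0, 17.3 and 17.5 RPKM in wild type, with no overlap (log2 fold change -0.71, SE 0.20, limma adjusted p = 0.0367). Col6a1 had 6.26, 4.53 and 4.34 RPKM with overexpression and 9.86, 6.50 and 7.26 RPKM in wild type, again with no overlap (-0.55, SE 0.15, limma adjusted p = 0.0364). Col6a2, the neighbour of Col6a1 on chromosome 10, had 6.96, 4.68 and 4.81 RPKM with overexpression and 10.9, 6.95 and 8.06 RPKM in wild type. Its highest overexpression library just passed its lowest wild-type library, and the log2 fold change was -0.57 (SE 0.17, limma adjusted p = 0.0423). Col6a1 over Col6a2 was 0.899 to 0.967 with overexpression and 0.900 to 0.936 in wild type.

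The further 2 genes that fell encode collagens that bind to the surface of fibrils. Col9a3, a chain of type IX collagen known from cartilage, had 1.66, 1.44 and 1.59 RPKM with Axin1 overexpression and 3.25, 2.29 and 2.10 RPKM in wild type, with no overlap (log2 fold change -0.45, SE 0.11, limma adjusted p = 0.0237). Col12a1, found on type I fibrils, had 5.63, 4.08 and 3.92 RPKM with overexpression and 6.90, 5.43 and 7.08 RPKM in wild type. Its groups overlapped in 1 library, and the log2 fold change was -0.44 (SE 0.13, limma adjusted p = 0.043).

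The 10 other genes of this class that did not pass had log2 fold changes between -0.46 and 0.35. The lowest was Col7a1, which makes anchoring fibrils (-0.46, limma adjusted p = 0.0786), followed by the transmembrane collagen Col23a1 (-0.33, limma adjusted p = 0.0921) and the short-chain network collagen Col8a2 (-0.27, limma adjusted p = 0.162). The highest was Col2a1, the fibril chain of cartilage, with 6.82, 9.33 and 8.99 RPKM with Axin1 overexpression and 7.72, 5.21 and 6.27 RPKM in wild type (0.35, limma adjusted p = 0.107). Transmembrane Col13a1 had 1.87, 1.64 and 2.07 RPKM with overexpression and 1.49, 1.26 and 1.56 RPKM in wild type, with no overlap (0.23, limma adjusted p = 0.0663). Between these lay Col9a2 (-0.16), the surface-binding Col16a1 (-0.12) and Col22a1 (0.02), and the fibril-forming Col11a1 (-0.11) and Col27a1 (-0.08).

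The 14 genes of other types under 1 RPKM were not tested. After Col25a1 and Col11a2, their means fell through Col8a1 (0.647 RPKM), Col20a1 (0.332), Col14a1 (0.228), Col28a1 (0.172), Col6a6 (0.151) and Col9a1 (0.116). Col19a1, Col6a4, Col6a5, Col17a1 of hemidesmosomes and Col24a1 lay between 0.0325 and 0.0916 RPKM. Col10a1, of growth-plate cartilage, had 0, 0 and 2 reads with Axin1 overexpression and 1, 1 and 1 read in wild type, at or under the limit of 3 reads that a count of 0 allows, so no fold is given. Col6a4, Col6a5 and Col6a6 are neighbouring relatives on chromosome 9, and the sources used here do not say how reads shared between such copies were assigned.

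Collagen genes varied more between libraries of a genotype than other genes did. The median coefficient of variation was 14.8% with Axin1 overexpression and 22.9% in wild type over the 26 tested collagen genes, against 5.60% and 6.86% over all genes tested. Axin1 overexpression replicate 1 was the highest of its group in 21 of the 26, against 21.3% of all genes tested. Wild-type replicate 2 was the lowest of its group in 24 of the 26, against 38.4% of all genes, and wild-type replicate 1 the highest in 17, against 32.6%. The median ratio of wild-type replicate 1 over replicate 2 was 1.49 for collagen genes and 1.01 for all genes.

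**Figure D4:**
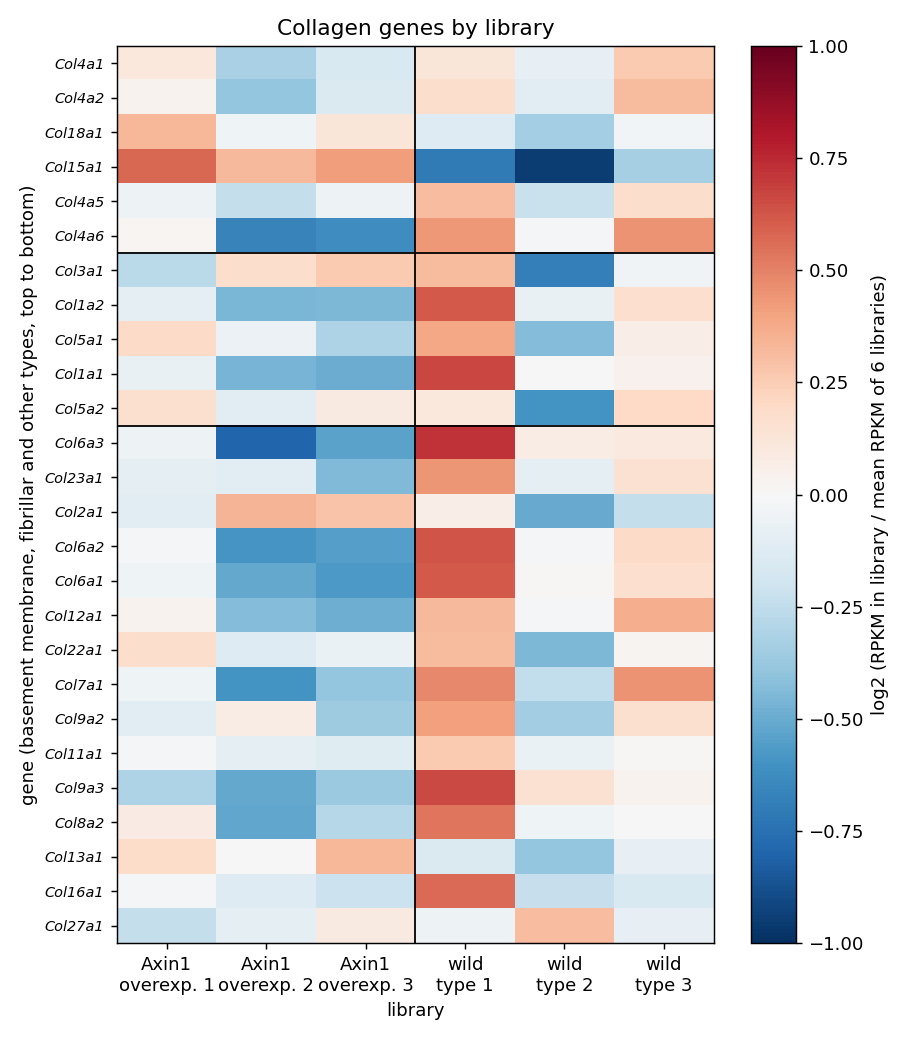
Level of each tested collagen gene in each library relative to the mean of all 6 libraries, as a colour on a log2 scale, with the 3 Axin1 overexpression libraries left of the 3 wild-type libraries. Wild-type replicate 2 lies lowest of its group for 24 of 26 genes and Axin1 overexpression replicate 1 highest of its group for 21 of 26.

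Markers of other cell types moved beside these genes, to be read against 14.4% of all genes called higher and 8.37% called lower. In pull-downs from many cells, the number of cells of a type, their RNA per cell and the carry-over of untagged RNA cannot be told apart. Of the meningeal fibroblast markers, 3 of the 11 tested fell and 0 were higher, and their summed level was 171.1, 153.1 and 147.8 RPKM with Axin1 overexpression and 228.7, 171.4 and 164.7 RPKM in wild type. Of the pericyte and smooth muscle markers, 4 of 9 tested fell and 0 were higher, with sums of 45.1, 33.7 and 31.9 RPKM with overexpression and 49.8, 44.4 and 52.4 RPKM in wild type. In both lists the summed levels overlapped between the groups. Without Notch3, the most abundant of the pericyte and smooth muscle list, its sums did not overlap, at 22.9 to 30.3 RPKM with overexpression and 31.4 to 35.5 RPKM in wild type. Neural progenitor markers were higher in 6 of 10 (773.6 to 852.7 RPKM with overexpression, 585.7 to 716.5 RPKM in wild type), and all 4 tested erythroid markers were higher (319.0 to 640.2 and 95.5 to 122.1 RPKM), with Hba-a1 listed at 0 in all libraries. Of 9 cartilage markers 2 passed 1 RPKM, of which Hapln1 was higher and Chad fell, with sums of 7.91 to 11.2 RPKM with overexpression and 4.78 to 6.34 RPKM in wild type. Without Hapln1 the cartilage sums were 2.19 to 2.53 RPKM with overexpression and 2.49 to 2.87 RPKM in wild type, which overlap. Of the 10 endothelial markers 1, Emcn, was higher and 3 fell. The part of these cell types in the collagen results was not tested.

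Tested collagen genes were also richer in G and C than other genes, with a median of 57.9% against 50.6%, and longer, with a median transcript of 5794 bases against 3002. With levels corrected for GC content and length, Col9a3 was the only collagen gene called lower, where 6.87% of all genes were. Col15a1, Col18a1 (log2 fold change 0.48, limma adjusted p = 0.0323) and Col13a1 (0.33, limma adjusted p = 0.0363) were called higher, where 8.01% of all genes were. The other 6 genes called lower without the correction had corrected log2 fold changes of -0.54 to -0.23. The corrected median was -0.05 over the collagen genes and 0.01 over all genes, with 16 of the 26 collagen genes and 46.8% of all genes below 0. Col15a1 was called higher in all 16 alternatives run, with log2 fold changes of 0.88 to 1.23.

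**Figure D5:**
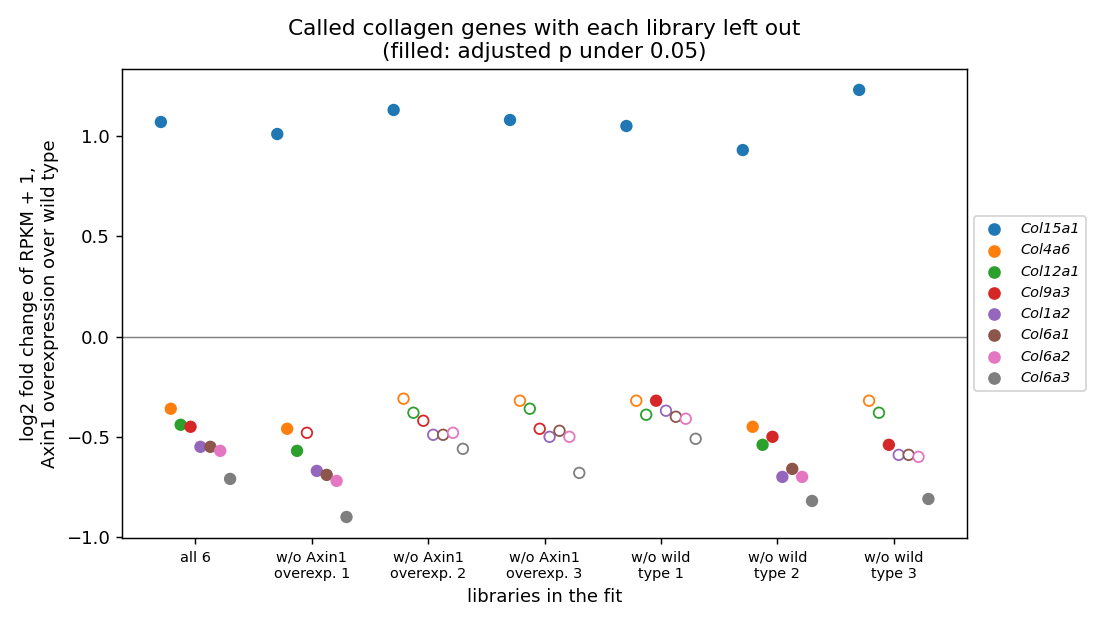
Log2 fold change of RPKM + 1, Axin1 overexpression over wild type, of the 8 collagen genes called, with all libraries and with each library left out in turn. Col15a1 keeps values of 0.93 to 1.23, while the 7 lower genes stay below 0 and lose their calls without Axin1 overexpression replicate 2 or 3.

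Genes of collagen synthesis and processing were called about as often as all genes. Of these 26 genes 23 were tested, 2 were higher (8.7%, against 14.4% of all genes), 3 fell (13.0%, against 8.37% of all genes) and 18 did not pass, with a median log2 fold change of 0.02. Mia3, which loads procollagen into carriers leaving the endoplasmic reticulum, averaged 10.9 ± 1.26 RPKM with Axin1 overexpression and 19.5 ± 3.61 RPKM in wild type (-0.78, limma adjusted p = 0.00555). The lysyl hydroxylase Plod1 averaged 53.3 ± 3.61 RPKM with overexpression and 71.7 ± 3.90 RPKM in wild type (-0.42, limma adjusted p = 0.00661). Adamts2, which trims the ends of fibrillar procollagens, fell by 0.50 (limma adjusted p = 0.0297). Its call was lost with the GC content and length correction (-0.36, limma adjusted p = 0.137), with no filter and with a pseudocount of 10. It was also lost without each Axin1 overexpression library in turn (limma adjusted p = 0.064 to 0.0973). Without each wild-type library in turn it held (limma adjusted p = 0.0148 to 0.0484). The prolyl hydroxylase Leprel1 was higher by 0.40 (limma adjusted p = 0.00755) and the prolyl isomerase Fkbp14 by 0.20 (limma adjusted p = 0.0432). The call of Fkbp14 was lost with median-of-ratios and upper-quartile scaling (limma adjusted p = 0.0708 and 0.0871), and with the replicate block (0.0733). With the GC content and length correction its log2 fold change was 0.05 (limma adjusted p = 0.51). With 1 library left out, its call held without Axin1 overexpression replicate 1 (limma adjusted p = 0.0451). It was lost without any other library (limma adjusted p = 0.0773 to 0.147).

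Of 7 crosslinking genes 6 were tested and 1 was higher (16.7%, against 14.4% of all genes), with a median log2 fold change of -0.09. This was Loxl2, an enzyme that crosslinks type IV collagen, with 5.52 ± 0.444 RPKM with Axin1 overexpression and 4.09 ± 0.232 RPKM in wild type (0.35, limma adjusted p = 0.0119). Of 10 collagen receptors 6 were tested, 3 fell (against 8.37% of all genes) and 0 were higher (against 14.4%), with a median of -0.33. The integrin Itga1, a receptor for type IV collagen, averaged 13 ± 1.62 RPKM with overexpression and 21.1 ± 2.21 RPKM in wild type (-0.66, limma adjusted p = 0.00439). Itga2, a receptor for fibrillar collagens, fell by 0.28 (limma adjusted p = 0.0395), and Ddr2, a receptor kinase for fibrillar collagens, fell by 0.38 (limma adjusted p = 0.0485). The calls of Itga2 and Ddr2 were lost with the GC content and length correction (limma adjusted p = 0.0587 and 0.0944). They were also lost without either of Axin1 overexpression replicates 2 and 3. Log2 fold changes in these fits were -0.38 to -0.24. Both calls were further lost without wild-type replicate 1 or 3 (limma adjusted p = 0.0626 to 0.126) and with no filter (0.0714 and 0.117). That of Ddr2 was lost as well without wild-type replicate 2 (limma adjusted p = 0.0671) and with pseudocounts of 0.1 and 10.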

How the data were processed

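RNA from TRAP of 3 Axin1 overexpression and 3 wild-type samples was sequenced as poly(A) RNA, per the labels' protocols. Bowtie, DESeq and mouse build mm9 are listed without versions, per the submitters' processing notes. The authors deposited RPKM per gene and library, a signal of averaged normalized counts for each genotype, a fold of wild type over Axin1 overexpression, and p-values with adjusted p-values. The normalized group means served to check which group each column holds and to recover reads. The header does not name the RPKM unit, which was taken from the values. Whole reads were recovered from the RPKM values together with these group means, with library scales set by the smallest steps between values. Of all values above 0, 83.6% came within 0.05 reads of a whole number, and 100% (rounded) of those of genes with a single transcript. The library scales were chosen on these single-transcript genes for closeness to whole numbers, so their share is not an independent check. Transcript length implied by these reads was 0.995 of the reference length in the median over 9210 genes. A weighted limma fit to log counts of the recovered reads (voom) called 9 collagen genes (1 higher, 8 lower). In that fit 16.2% of all genes were called higher and 8.12% lower.

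The test was limma 3.58.1 in R 4.3.3 on log2(RPKM + 1), two-sided, without block or covariate, over the 12493 genes that averaged 1 RPKM or more, and the script was tested on simulated data. Given ± values are SD of 3 libraries. An exact permutation test of 3 against 3 cannot go below p = 0.10, so none was run. Alternatives changed the pseudocount, filter, scaling, variance model, block, GC and length correction and the libraries used. Replicates differed by more than sampling noise, so none was counted as a duplicate. Members and lists were chosen with earlier results of these data known. Named genes were all collagens with a mean of at least 1 RPKM and, from each pathway list, up to 4 called members a direction. Promoters came from RefSeq tables on GRCm38.p6, and no mm9 coordinate is given. The limit of 3 reads covers counting error only.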

Additional observations from a re-analysis of the deposited data

How the results depend on the processing

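The main fit called 8 collagen genes (1 higher, 7 lower), where 8.37% of all genes were called lower. A pseudocount of 0.1 called 4 (3 lower, against 7.74% of all genes). A pseudocount of 10 called 1 (0 lower, against 7.6%), and no filter 2 (1 lower, against 4.66%). Trended and robust variances called 5 (4 lower, against 8.68%). The GC content and length correction called 4 (3 higher, against 8.01%, and 1 lower, against 6.87%). The authors' deposited adjusted p, an alternative chosen after seeing the data, called 2 (1 lower), against 8.88% of all genes in either direction. Leaving out 1 library gave 1 to 12 calls, of which 0 to 11 were lower, against 3.72 to 7.47% of all genes called lower. Deviations from each gene's group mean, on the log2(RPKM + 1) scale, correlated at 0.0785, 0.127 and 0.0593 between same-numbered libraries. The numbers were therefore not taken as pairs, although the deviations of each library correlated best with those of its own number. The replicate block gave 14 calls (3 higher, 11 lower), where 12.7% of all genes were called higher and 8.68% lower. Over all genes, 2846 were called with 1800 higher and 1046 lower; median-of-ratios scaling gave 1248 higher and 1392 lower, upper-quartile scaling 1117 and 1466, the GC content and length correction 1856 in all, and leaving out 1 library 1054 to 2318. The pathway lists had 9 calls in the main fit, where 22.8% of all genes were called. They had 5 with the GC content and length correction and 5 to 13 with 1 library left out, beside the all-gene counts just given. A mean of at least 5 RPKM was reached by 15 collagen genes. Log2 fold changes turned sign with the GC content and length correction for Col5a1 (0.15), Col16a1 (0.09) and Col27a1 (0.14), and with median-of-ratios and upper-quartile scaling for Col22a1 (-0.02 and -0.03). Leaving out 1 library turned Col3a1 (-0.08 to 0.41), Col5a1 (-0.28 to 0.11), Col5a2 (-0.10 to 0.28), Col22a1 (-0.15 to 0.16) and Col16a1 (-0.21 to 0.04). None of these 6 genes was called in any setting, and the cause was not tested. Depth limits genes near 1 read: 3 reads at 1 kb are 0.081 to 0.142 RPKM with Axin1 overexpression and 0.048 to 0.056 in wild type.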
